A study of Mus musculus with 6 samples.

Results

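The genes described here are 10 genes of caveolae and of membrane repair, *Cav1*, *Cav2*, *Cav3*, *Cavin1*, *Cavin4*, *Trim72*, *Dysf*, *Bin1*, *Anxa1*, and *Anxa2*. They were chosen by name, with earlier results of these data known, from the 23231 genes with at least 1 count in any library. Their share of calls is therefore not independent of these data. The 10 genes were divided into 3 muscle isoforms (*Cav3*, *Cavin4*, and *Trim72*) and 7 general genes that many cell types express. Among the general genes, *Dysf* and one spliced form of *Bin1* are also abundant in muscle, so the division follows the list and is not strict.

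The libraries were made from C2C12, a mouse myoblast line that fuses into multinucleated myotubes after serum is reduced. Poly(A) RNA was sequenced on day 5 of differentiation from 3 libraries of dCas9-KRAB cells and 3 libraries of dCas9-KRAB-En5 cells, and both groups received lentivirus at a multiplicity of infection of 100, 2 μg/ml puromycin, and 2% horse serum. dCas9-KRAB joins a Cas9 that cannot cut DNA to a repressor domain. The dCas9-KRAB cells carried this protein with no sgRNA against an enhancer, and the dCas9-KRAB-En5 cells also carried 2 sgRNAs against En5, an enhancer of *Myog*. Both constructs used one vector backbone, in which the human ubiquitin C promoter drives dCas9-KRAB, and the cells were a selected population after transduction. The comparison asks how the caveola and repair genes differed on day 5 when the *Myog* enhancer was repressed. No label states whether the replicates were separate cultures, so the p-values measure only the spread between these libraries, which may be technical.

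Caveolae are small flask-shaped pits of the plasma membrane. Caveolins form their membrane coat and cavins assemble around it from the cytosolic side, and muscle fibers use CAV3 where most other cells use CAV1 with CAV2. When the muscle membrane tears, TRIM72 (MG53) and dysferlin bring vesicles to the wound, annexins bind the injured membrane in the presence of calcium, and BIN1 shapes the transverse tubules, the inward folds of the muscle membrane.

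In the dCas9-KRAB-En5 cells, 6 of the 10 genes were called lower and 0 were called higher. All 3 muscle isoforms were called lower, with 0 to 22 counts per library, and so were the general genes *Cavin1*, *Dysf*, and *Bin1*. *Cav1*, *Cav2*, *Anxa1*, and *Anxa2* were not called. A call needed a log2 fold change of at least 1 in size and an adjusted p no higher than 0.01 in the quasi-likelihood test of edgeR, with Benjamini-Hochberg adjustment over the 14378 genes tested, all 10 members among them. Over all these genes, 4.67% were called lower and 1.52% were called higher, which is 671 and 219 genes. This split moved with the setting, to 516 lower and 70 higher when counts were scaled by total alone, 878 and 772 with offsets that take out trends with each gene's GC content and length, 1423 and 967 with DESeq2, and 976 and 567 with the replicate block. No member was higher at an unadjusted p under 0.05, and neither DESeq2 nor limma called one higher. The TPM (read counts corrected for gene length and library size) of the same 6 members did not overlap between groups, with each dCas9-KRAB-En5 library below each dCas9-KRAB library. Over all genes tested, this held for 19.7%, and the opposite order held for 7.76%. The median log2 fold change was 0.08 over all genes tested and −1.02 over the general genes. For the muscle isoforms it was −7.50, or −6.34 with *Cav3* at the bound that its counts allow.

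The libraries held 31831093 to 73988425 counts. dCas9-KRAB-En5 replicate 3 listed 13991 genes against 17084 to 19395 in the others, and ribosomal protein genes took 25.8% of its counts against 10.8% to 19.4%. *Myog*, the gene whose enhancer was targeted, was at 1136 ± 80.9 TPM in dCas9-KRAB cells and 0.126 ± 0.219 TPM in dCas9-KRAB-En5 cells (mean ± SD, n = 3). The summed TPM of 10 muscle markers was 15790 to 17891 in dCas9-KRAB libraries and 6.26 to 15.2 in dCas9-KRAB-En5 libraries, and that of 8 myoblast markers was 624 to 2195 and 86.3 to 364. *Sdc4* alone was 285, 350, and 43.0 TPM of the latter in dCas9-KRAB-En5 replicates 1 to 3, and its mean was 226 ± 162 TPM there against 48.9 ± 9.66 TPM in dCas9-KRAB cells, opposite to *Des* at 9.02 ± 4.40 against 1010 ± 599 TPM (n = 3). This pair was chosen after its values were seen. In dCas9-KRAB-En5 cells the defining myoblast gene *Myod1* was at 0.0359 ± 0.0382 TPM, against 74.5 ± 38.6 TPM in dCas9-KRAB cells, and only 3 of the 8 myoblast markers were at 1 TPM or above in all dCas9-KRAB-En5 libraries. *Pax7* was near the floor in both groups, at 0.00635 TPM in dCas9-KRAB and 0.0181 TPM in dCas9-KRAB-En5 cells on average, so it does not separate them. The labeled myoblast type was not borne out by *Myod1* in dCas9-KRAB-En5 cells. The summed TPM of 16 macrophage markers was 4161 to 4835 in dCas9-KRAB libraries and 5667 to 8864 in dCas9-KRAB-En5 libraries. Of these 16 markers, 10 were at 1 TPM or above in every library, *Mrc1* was at 0 in every library, and the C1q genes were below 1 TPM on average. *Fcer1g*, *Spi1*, *Aif1*, and the C1q genes had lower means in dCas9-KRAB-En5 cells, and the other detected markers had higher means. *Cd14* alone was 3398 TPM of the sum in dCas9-KRAB-En5 replicate 1. Macrophage markers were thus abundant in both groups, also in the dCas9-KRAB libraries labeled C2C12, and the source of this RNA was not tested. The 9 fibroblast markers summed to 70.4 to 206 TPM and 20.9 to 39.2 TPM with *Thy1* at 0. The 7 endothelial markers summed to at most 0.860 TPM in any library with *Tek* and *Emcn* at 0, and the 6 adipocyte markers summed to at most 0.0640 TPM with *Adipoq*, *Cidec*, *Lep*, and *Adrb3* at 0. The muscle markers moved with the lower genes described below, and their part in each result was not tested. In bulk RNA, fewer cells of a type and less RNA per cell cannot be told apart.

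The start regions of 3 muscle isoforms and of *Cav1* are shown first, since the contrast between *Cav3* and *Cav1* runs through the results and an E-box is the short motif that MYOG and its relatives bind. Each run holds 250 bases before and 50 bases after the RefSeq start, 5′ to 3′ on the plus strand of GRCm38.p6, and capitals mark each E-box (CANNTG, which reads the same on both strands). The *Cav3* region is chr6:112459255-112459554, that of *Cavin4* is chr4:48663264-48663563, that of *Trim72* is chr7:128004128-128004427, and that of *Cav1* is chr6:17306085-17306384.
Cav3: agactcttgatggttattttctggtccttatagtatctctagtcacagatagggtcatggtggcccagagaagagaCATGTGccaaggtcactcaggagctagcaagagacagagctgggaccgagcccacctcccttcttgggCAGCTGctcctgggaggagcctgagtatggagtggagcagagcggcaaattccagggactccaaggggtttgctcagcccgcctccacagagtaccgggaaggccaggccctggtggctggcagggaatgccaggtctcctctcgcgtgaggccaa
Cavin4: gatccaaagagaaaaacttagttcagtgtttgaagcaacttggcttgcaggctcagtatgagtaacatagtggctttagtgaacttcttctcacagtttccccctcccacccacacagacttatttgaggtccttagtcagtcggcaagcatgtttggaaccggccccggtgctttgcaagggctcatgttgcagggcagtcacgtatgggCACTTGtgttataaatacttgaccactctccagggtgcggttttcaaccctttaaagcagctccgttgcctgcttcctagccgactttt
Trim72: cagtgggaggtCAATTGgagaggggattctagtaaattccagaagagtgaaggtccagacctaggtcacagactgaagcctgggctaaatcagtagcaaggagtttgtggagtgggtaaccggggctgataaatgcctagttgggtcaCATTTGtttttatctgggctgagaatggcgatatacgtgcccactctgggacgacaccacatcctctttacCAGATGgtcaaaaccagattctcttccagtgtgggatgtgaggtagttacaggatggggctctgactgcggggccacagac
Cav1: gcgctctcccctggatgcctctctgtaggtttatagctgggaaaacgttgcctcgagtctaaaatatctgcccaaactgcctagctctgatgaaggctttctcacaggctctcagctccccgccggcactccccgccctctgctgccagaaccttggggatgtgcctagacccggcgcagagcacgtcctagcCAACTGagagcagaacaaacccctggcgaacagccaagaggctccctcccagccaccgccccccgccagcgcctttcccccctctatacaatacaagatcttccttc

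The *Cav3* region held 2 E-boxes, of which the one at position −106 from the start is CAGCTG, and the *Trim72* region held 3. The *Cavin4* and *Cav1* regions held 1 each. Of the other members in the table, *Cav2* held 2, *Anxa1* held 1, and *Cavin1*, *Dysf*, and *Anxa2* held 0, while *Bin1* was not searched. *Cav1*, *Cavin1*, and *Dysf* have 2 RefSeq promoters each, and only the start nearest the annotated gene start was searched. The RefSeq start of *Trim72* (128004378) lies inside the annotated gene, which begins at 128003949. An E-box occurred in 72.3% of the 32817 promoters of this length in the table, and CAGCTG, which is one of the E-boxes, in 16.3%. No MEF2 site and no CArG box was found in the 9 regions, against 0.558% and 1.63% of all promoters. Such a match describes letters and was not tested as a binding site.

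*Cav3* encodes the caveolin of muscle fibers and has 2 exons on the plus strand of chromosome 6 (112459505 to 112472872, GRCm38). Its level was 2.87, 2.47, and 3.05 TPM in dCas9-KRAB replicates 1 to 3, from 90, 107, and 158 counts. In dCas9-KRAB-En5 replicates 1 to 3 it was 0.0408, 0, and 0 TPM, from 1, 0, and 0 counts. The groups did not overlap, and only 1 read was assigned to *Cav3* over the dCas9-KRAB-En5 libraries. Scaled to the total counts, the summed counts were 211 times higher in dCas9-KRAB cells, with an exact 95% interval of 37.5 to 8338 that covers counting error only. edgeR's quasi-likelihood test gave an adjusted p of 0.00172. Without dCas9-KRAB replicate 1, the adjusted p was 0.0167 and *Cav3* was no longer called, and without dCas9-KRAB-En5 replicate 1, which held the only read, the fitted log2 fold change went from −7.50 to −9.62. That last value has no *Cav3* read behind it in the dCas9-KRAB-En5 group and is not an effect size. Over all libraries, *Cav3* was at least 22.9-fold lower against a floor of 3 counts per library.

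*Cavin4*, also called *Murc*, encodes the cavin found mainly in muscle and has 2 exons on the plus strand of chromosome 4 (48663514 to 48673502). It reached 18.0, 16.3, and 12.5 TPM in dCas9-KRAB replicates 1 to 3 and 0.184, 0.632, and 0 TPM in dCas9-KRAB-En5 replicates 1 to 3. The dCas9-KRAB libraries were close to each other, and the highest dCas9-KRAB-En5 library, replicate 2, held 22 counts. The mean was 15.6 ± 2.801 TPM in dCas9-KRAB cells and 0.272 ± 0.325 TPM in dCas9-KRAB-En5 cells (n = 3), a 57.4-fold difference. edgeR estimated a log2 fold change of −6.34 ± 0.89 (SE), with an adjusted p of 0.000872. The call was lost without dCas9-KRAB replicate 1 (edgeR adjusted p = 0.0161), and the log2 fold change was −7.56 without dCas9-KRAB-En5 replicate 2.

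*Trim72* encodes MG53, the muscle protein that brings vesicles to membrane wounds, and has 7 merged exons on the plus strand of chromosome 7 (128003949 to 128011033). Its level was 14.6, 68.5, and 41.1 TPM in dCas9-KRAB replicates 1 to 3. The corresponding dCas9-KRAB-En5 values were 0.233, 0.132, and 0 TPM, from 11, 5, and 0 counts. The dCas9-KRAB libraries spread 4.68-fold with replicate 1 lowest, yet the lowest of them lay far above each dCas9-KRAB-En5 library. The mean was 41.4 ± 26.9 TPM against 0.122 ± 0.117 TPM (n = 3), a 341-fold difference, and edgeR gave a log2 fold change of −8.69 ± 0.92 (SE) with an adjusted p of 0.000124. *Trim72* was called in all 16 alternatives that gave it a value, with the log2 fold change at −9.56 without dCas9-KRAB-En5 replicate 1. Of its 50-base words, 23.8% are shared with the antisense gene *Gm15533*, which had no count in any library.

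**Figure D1:**
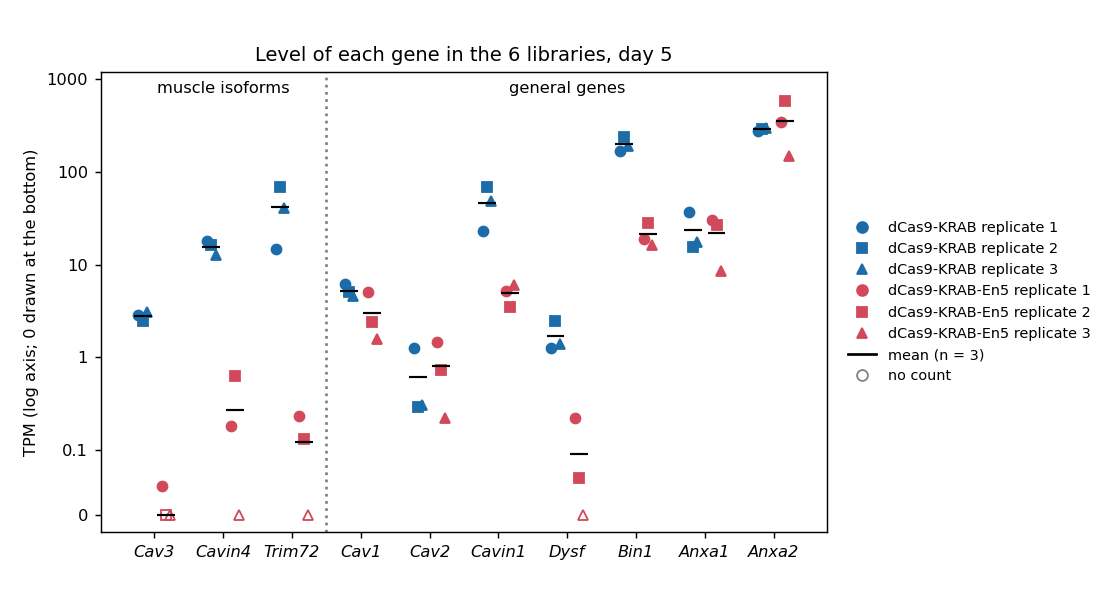
TPM of each of the 10 genes (log axis, 0 drawn at the bottom) in the 3 dCas9-KRAB libraries (blue) and the 3 dCas9-KRAB-En5 libraries (red), with black lines at the means and open symbols for libraries with no count. The 3 muscle isoforms were at 2.47 to 68.5 TPM in dCas9-KRAB libraries and at most 0.632 TPM in dCas9-KRAB-En5 libraries, while *Cav1*, *Cav2*, *Anxa1*, and *Anxa2* overlapped between groups.

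The general caveolins did not show the pattern of *Cav3*. *Cav1*, the main caveolin outside muscle (chromosome 6, 17306335 to 17341452, plus strand), was at 6.17, 5.00, and 4.54 TPM in dCas9-KRAB replicates 1 to 3 and at 5.04, 2.43, and 1.57 TPM in dCas9-KRAB-En5 replicates 1 to 3. The groups overlapped through dCas9-KRAB-En5 replicate 1, and the other dCas9-KRAB-En5 libraries were below each dCas9-KRAB library. The log2 fold change was −1.02 ± 0.51 (SE), with a 95% interval of −2.13 to 0.09 and an edgeR adjusted p of 0.187. *Cav1* was not called in any of 17 alternatives, although its estimate was below 0 in each, and this interval still holds a decrease.

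*Cav2*, which pairs with CAV1 in the caveolar coat and lies next to *Cav1* (chromosome 6, 17281185 to 17289115, plus strand), was the member with the lowest mean in dCas9-KRAB cells. It was at 1.25, 0.288, and 0.308 TPM in dCas9-KRAB replicates 1 to 3 and 1.47, 0.725, and 0.223 TPM in dCas9-KRAB-En5 replicates 1 to 3, from 17 to 113 counts. Replicate 1 was highest in each group and the ranges overlapped over most of their length. The log2 fold change was 0.02 ± 0.84 (SE), with a 95% interval of −1.83 to 1.86 and an edgeR adjusted p of 0.991. Its sign was not stable, since it was −0.14 with upper-quartile normalization and 1.05 without dCas9-KRAB replicate 1.

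The makeup of the caveolins differed between groups. Summed caveolin TPM was 8.65 ± 1.42 in dCas9-KRAB cells and 3.84 ± 2.45 in dCas9-KRAB-En5 cells (n = 3), with ranges of 7.76 to 10.3 and 1.80 to 6.56 TPM. *Cav3* held 32.8 ± 5.44% of this sum in dCas9-KRAB cells and 0.207 ± 0.359% in dCas9-KRAB-En5 cells. The share of *Cav1* was 60.6 ± 3.53% and 80.5 ± 6.13%, and that of *Cav2* was 6.58 ± 4.81% and 19.3 ± 5.96%. These shares describe what remained, since the TPM of *Cav1* and *Cav2* overlapped between groups. TPM divides by length, and by counts the share of *Cav3* in dCas9-KRAB cells was 14.2%.

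*Cavin1* encodes the cavin that caveolae need to form (chromosome 11, 100956733 to 100970887, minus strand). It was at 22.8, 68.2, and 48.9 TPM in dCas9-KRAB replicates 1 to 3 and 5.21, 3.49, and 6.08 TPM in dCas9-KRAB-En5 replicates 1 to 3. No library overlapped, but dCas9-KRAB replicate 1 was at a lower level than the other dCas9-KRAB libraries. The means were 46.7 ± 22.8 and 4.93 ± 1.32 TPM (n = 3), a 9.48-fold difference, and edgeR gave a log2 fold change of −3.12 ± 0.63 (SE) with an adjusted p of 0.00725. This call rested on 5 of the 6 libraries. The edgeR adjusted p rose to 0.0177 without dCas9-KRAB-En5 replicate 1, 0.0192 without its replicate 2, and 0.0296, 0.0334, and 0.0245 without dCas9-KRAB replicates 1, 2, and 3. Without dCas9-KRAB-En5 replicate 3 it was still called, at a log2 fold change of −3.99.

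The summed TPM of the 4 cavins was 171 ± 40.7 in dCas9-KRAB cells and 8.26 ± 2.95 in dCas9-KRAB-En5 cells (n = 3). *Cavin3* held 58.7 ± 3.80% of cavin TPM in dCas9-KRAB cells and 34.3 ± 11.3% in dCas9-KRAB-En5 cells. The share of *Cavin1* was 26.2 ± 7.56% and 61.0 ± 6.13%, so what remained in dCas9-KRAB-En5 cells was mostly *Cavin1*. *Cavin4* held 9.70 ± 3.88% and 4.66 ± 6.21%, where dCas9-KRAB-En5 replicate 2 alone was at 11.7% and the mean of the others was 1.14%. The bars of family shares by library show the loss of *Cav3* from the caveolins in each dCas9-KRAB-En5 library.

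**Figure D2:**
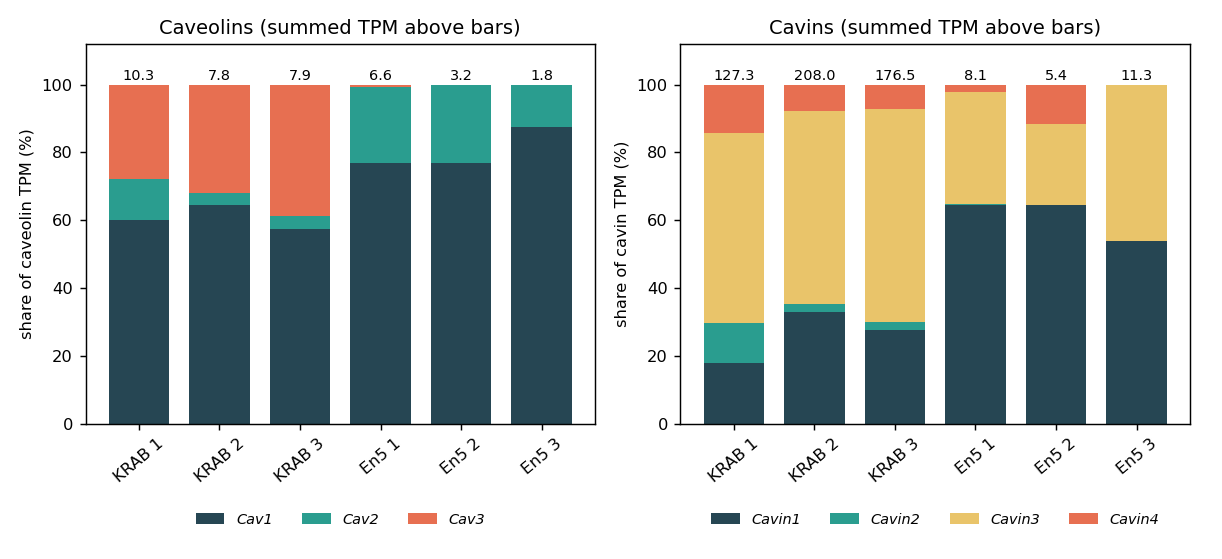
Share of each gene in the summed TPM of the caveolins (left) and of the cavins (right) in the 6 libraries, with the summed TPM printed above each bar. *Cav3* was 27.9% to 38.6% of caveolin TPM in dCas9-KRAB libraries and at most 0.622% in dCas9-KRAB-En5 libraries, and *Cavin1* was 17.9% to 32.8% of cavin TPM against 53.9% to 64.6%.

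Of the repair genes outside the muscle isoforms, *Dysf* encodes dysferlin, the calcium sensor of muscle membrane repair, and spans 62 merged exons on the plus strand of chromosome 6 (84008590 to 84211060). It was at 1.25, 2.49, and 1.39 TPM in dCas9-KRAB replicates 1 to 3 and 0.221, 0.0496, and 0 TPM in dCas9-KRAB-En5 replicates 1 to 3, where it had 39, 7, and 0 counts. The groups did not overlap, with dCas9-KRAB-En5 replicate 1 the highest of its group. The mean was 1.71 ± 0.675 TPM against 0.0902 ± 0.116 TPM (n = 3), a 19.0-fold difference, and edgeR gave a log2 fold change of −4.60 ± 0.99 (SE) with an adjusted p of 0.00992, just inside the threshold. Scaling by total counts alone raised the edgeR adjusted p to 0.0289. It was 0.0519, 0.0406, and 0.0168 without dCas9-KRAB replicates 1, 2, and 3, and 0.0262 without dCas9-KRAB-En5 replicate 2, and *Dysf* was not called in any of these. Without dCas9-KRAB-En5 replicate 1 the log2 fold change was −6.46.

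*Bin1*, whose product bends membranes into tubules (chromosome 18, 32377230 to 32435737, plus strand), was the most abundant of the members called lower. It was at 169, 235, and 191 TPM in dCas9-KRAB replicates 1 to 3 and 19.0, 28.4, and 16.1 TPM in dCas9-KRAB-En5 replicates 1 to 3. The lowest dCas9-KRAB library was well above the highest dCas9-KRAB-En5 library. The means were 198 ± 33.6 and 21.1 ± 6.42 TPM (n = 3), a 9.37-fold difference, and edgeR gave a log2 fold change of −3.35 ± 0.49 (SE) with an adjusted p of 0.00113. *Bin1* kept its call in all 17 alternatives run, at log2 fold changes of −3.70 to −3.04. Unlike the muscle isoforms, it had 1515 to 1980 counts in each dCas9-KRAB-En5 library. Gene-level counts do not separate its muscle form from the others. The antisense gene *A830052D11Rik* overlaps its exons and had at most 15 counts in a library.

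*Anxa1* encodes annexin A1, which gathers at injured membrane (chromosome 19, 20373428 to 20390944, minus strand). It was at 37.2, 15.4, and 17.5 TPM in dCas9-KRAB replicates 1 to 3 and 30.5, 26.9, and 8.57 TPM in dCas9-KRAB-En5 replicates 1 to 3. The groups overlapped, with the means at 23.4 ± 12.0 and 22.0 ± 11.8 TPM (n = 3). The log2 fold change was −0.42 ± 0.49 (SE), with a 95% interval of −1.49 to 0.64 and an edgeR adjusted p of 0.580, and its sign turned to 0.07 without dCas9-KRAB replicate 1.

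*Anxa2*, whose product binds phospholipid and actin at the membrane (chromosome 9, 69453620 to 69491795, plus strand), had the highest TPM of the 10 genes in both groups. It was at 279, 287, and 297 TPM in dCas9-KRAB replicates 1 to 3 and 346, 576, and 148 TPM in dCas9-KRAB-En5 replicates 1 to 3. The dCas9-KRAB libraries differed by 1.07-fold from lowest to highest and the dCas9-KRAB-En5 libraries by 3.90-fold, enclosing them. The log2 fold change was −0.01 ± 0.45 (SE), with a 95% interval of −1.005 to 0.98 and an edgeR adjusted p of 0.989. Its sign was not stable either, at 0.10 when counts were scaled by total alone.

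**Figure D3:**
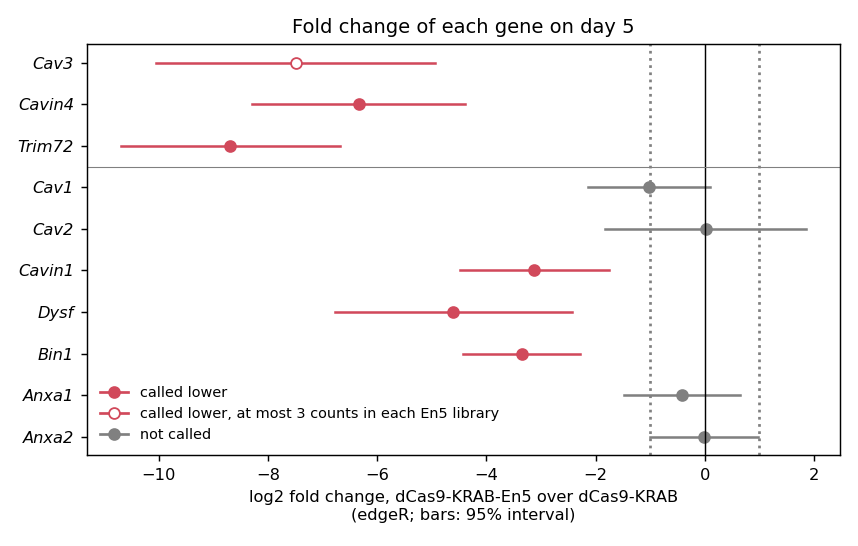
log2 fold change (dCas9-KRAB-En5 over dCas9-KRAB, edgeR) of the 10 genes with 95% intervals, muscle isoforms above the grey line, and dotted lines at −1 and 1. The 3 muscle isoforms lay between −8.69 and −6.34, the called general genes *Cavin1*, *Dysf*, and *Bin1* between −4.60 and −3.12, and the 4 genes not called between −1.02 and 0.02.

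In order of mean TPM, the dCas9-KRAB libraries ran *Anxa2*, *Bin1*, *Cavin1*, *Trim72*, *Anxa1*, *Cavin4*, *Cav1*, *Cav3*, *Dysf*, and *Cav2*. Of the 9 pairs of neighbors in this order, 4 overlapped in the ranges of their libraries, *Cavin1* with *Trim72*, *Trim72* with *Anxa1*, *Anxa1* with *Cavin4*, and *Cav3* with *Dysf*. In the dCas9-KRAB-En5 libraries the order was *Anxa2*, *Anxa1*, *Bin1*, *Cavin1*, *Cav1*, *Cav2*, *Cavin4*, *Trim72*, *Dysf*, and *Cav3*. There 6 of the 9 pairs overlapped, and the last 4 genes were each at 0 in at least 1 library.

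Within the dCas9-KRAB group, the members differed between replicates in an order that followed their GC content. The ratio of dCas9-KRAB replicate 1 to the mean of replicates 2 and 3, in TPM, was 4.19 for *Cav2* and 2.25 for *Anxa1*, whose transcripts have 41.1% and 43.3% GC. It was 0.390 for *Cavin1* and 0.267 for *Trim72*, at 58.3% and 60.0% GC. Over the 10 members, Spearman's rho between this ratio and GC content was −0.94, given as a description of points that share the same libraries. The ratio of dCas9-KRAB-En5 replicate 3 to the mean of replicates 1 and 2 had a rho of 0.04. This rho cannot show whether a trend was absent, since *Cavin4*, *Cav3*, *Dysf*, and *Trim72* had no count in that library and tied at 0. For the members with counts, in order of rising GC content, the ratio was 0.203 for *Cav2*, 0.299 for *Anxa1*, and 0.421 for *Cav1*. It was 0.321 for *Anxa2*, 0.679 for *Bin1*, and 1.398 for *Cavin1*, so it mostly rose with GC content. When the fit included offsets for GC and length, an alternative chosen after seeing the data, the same 6 members were called lower, with *Trim72* at a log2 fold change of −7.51 and *Cavin1* at −2.59.

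By Pearson's r of log2(TPM + 1) over the 6 libraries, among 6015 genes with a mean of at least 10 TPM in a group, the 3 genes most like *Cav3* were *Myoz2*, *Ankrd2*, and *Mb* (r of 0.999, 0.999, and 0.998). Their means were 17.04, 406, and 90.8 TPM in dCas9-KRAB cells and 0, 0.0553, and 0 TPM in dCas9-KRAB-En5 cells. In all, 72 genes had an r of at least 0.99 with *Cav3*. For *Cav1* the closest were *Hsbp1*, *Adora2b*, and *Dynlt1b* (r of 0.969, 0.967, and 0.963), and 0 genes reached 0.99. The 6 libraries form 2 groups, so these values rank genes and carry no test.

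The other caveola and membrane repair genes were 47 named genes, chosen by role. Of these, 43 were listed in at least 1 library and 41 were tested, of which 4 were called lower, 0 higher, and 37 were not called. At an unadjusted p under 0.05, 10 were lower and 6 were higher in edgeR, and DESeq2 called 7 lower and 1 higher. limma on log2(TPM + 1) called 4 lower and 0 higher, but not the same 4, since it did not call *Ehd3* (adjusted p = 0.01003, log2 difference −0.84) and called *Anxa8* (adjusted p = 0.00662). Over all genes, DESeq2 called 1423 lower and 967 higher of 16436 tested, and limma called 482 and 32 of 14378. The share of all genes at the unadjusted cutoff is not given here, so the unadjusted counts are not a result about these genes. The median log2 fold change of the 41 was −0.44. TPM lay below without overlap for 11 of the 41 and above for 2, where 19.7% and 7.76% of all genes tested did so, and the 4 called lower stand beside the 4.67% of all genes tested. All 4 genes called by edgeR were among the 9 partners of caveolae, where 5 were lower and 1 was higher at an unadjusted p under 0.05. The higher one, *Ehd4*, was at 31.4 ± 5.77 TPM in dCas9-KRAB and 118 ± 75.3 TPM in dCas9-KRAB-En5 cells (n = 3), with overlap. Its log2 fold change was 1.54 (edgeR adjusted p = 0.0421). edgeR called it higher with the GC and length offsets (adjusted p = 0.00584) and without dCas9-KRAB-En5 replicate 3 (adjusted p = 0.00203). *Ehd4* is named after its values were seen. edgeR called 0 of 2 tested ferlins (1 higher at an unadjusted p under 0.05), 0 of 14 genes of the repair machinery such as calpains and SNAREs (1 lower and 2 higher), and 0 of 4 curvature genes (0 either way), and DESeq2 and limma also called 0 in these groups. For the repair machinery this moved with the setting. Without a low-count filter, edgeR called *Vamp2* lower (adjusted p = 0.00369). Without dCas9-KRAB-En5 replicate 3, edgeR called *Capns1* lower (adjusted p = 0.00341) and *Pdcd6ip* higher (adjusted p = 0.00457). The median log2 fold change of the repair machinery was 0.12, and 2 of its 14 genes lay below without overlap, beside 19.7% of all genes tested.

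*Cavin2* and *Cavin3* encode cavins that join CAVIN1 on caveolae. *Cavin2* was at 14.9, 5.44, and 3.72 TPM in dCas9-KRAB replicates 1 to 3 and 0.0309, 0, and 0 TPM in dCas9-KRAB-En5 replicates 1 to 3, from 2, 0, and 0 counts. The summed counts were 702 times higher in dCas9-KRAB cells after scaling to totals, with an exact 95% interval of 194 to 5799 for counting error, and the edgeR adjusted p was 0.000206. *Cavin3* was at 71.6, 118, and 111 TPM in dCas9-KRAB replicates 1 to 3 and 2.67, 1.28, and 5.21 TPM in dCas9-KRAB-En5 replicates 1 to 3. Neither gene overlapped between groups. The log2 fold change of *Cavin3* was −4.76 ± 0.80 (SE), with an edgeR adjusted p of 0.00279.

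*Ehd3* encodes an ATPase related to EHD2, which sits at the neck of caveolae. It was at 0.697, 1.13, and 0.579 TPM in dCas9-KRAB replicates 1 to 3 and had no count in any dCas9-KRAB-En5 library, which makes it at least 36.2-fold lower against a floor of 3 counts per library (edgeR adjusted p = 0.000892). *Pacsin3* encodes a membrane-bending protein of muscle caveolae. It was at 14.0, 32.4, and 24.1 TPM in dCas9-KRAB replicates 1 to 3 and 0.622, 0.763, and 1.32 TPM in dCas9-KRAB-En5 replicates 1 to 3. The groups did not overlap, and the log2 fold change was −4.52 ± 0.70 (SE) with an edgeR adjusted p of 0.0016. Without dCas9-KRAB replicate 1, *Cavin2* alone of the 4 was still called, with edgeR adjusted p-values of 0.0302 for *Cavin3*, 0.0161 for *Ehd3*, and 0.0171 for *Pacsin3*, and without dCas9-KRAB replicate 2 *Cavin3* was at 0.0109. Without dCas9-KRAB-En5 replicate 3 the log2 fold changes of *Cavin3* and *Pacsin3* were −6.24 and −5.69, and without dCas9-KRAB-En5 replicate 1 that of *Cavin2* was −12.55. This *Cavin2* value has no read behind it in the dCas9-KRAB-En5 group and is not an effect size. Over all libraries, *Cavin2* was at least 176-fold lower against the floor of 3 counts per library.

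The neck protein gene *Ehd2* was at 25.7 ± 17.1 TPM in dCas9-KRAB cells and 16.6 ± 9.08 TPM in dCas9-KRAB-En5 cells (n = 3), and *Pacsin2*, the widely expressed relative of *Pacsin3*, was at 13.2 ± 2.76 and 10.8 ± 8.27 TPM. Both overlapped between groups. The log2 fold change of *Pacsin2* was −0.71 with a 95% interval of −1.77 to 0.35, and that of *Pacsin3* had an interval of −6.04 to −2.99. The difference between these relatives was not tested. With the replicate number as a block, *Pacsin1* and *Anxa8* were also called lower, with edgeR adjusted p-values of 0.0018 and 0.00155. DESeq2 called both lower (adjusted p = 0.000525 and 0.00367), as did edgeR without a low-count filter or without dCas9-KRAB-En5 replicate 3. The main fit called neither (edgeR adjusted p = 0.0167 and 0.0362), nor did edgeR with any other single library left out. *Anxa8* was at 40.8, 36.1, and 37.4 TPM in dCas9-KRAB replicates 1 to 3. It was at 2.94, 1.95, and 8.93 TPM in dCas9-KRAB-En5 replicates 1 to 3, without overlap (log2 fold change −2.71). *Pacsin1* and *Anxa8* are named here because their call changed, after their values were seen.

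Among the ferlins, the relatives of dysferlin, *Myof* was at 1.99 ± 0.821 TPM in dCas9-KRAB cells and 4.001 ± 3.11 TPM in dCas9-KRAB-En5 cells (n = 3), with overlap and a log2 fold change of 0.57 (95% interval −0.72 to 1.86) that turned to −0.50 with the GC and length offsets. Of the 12 tested annexins and partners, edgeR called 0, with 4 lower and 2 higher at an unadjusted p under 0.05, and DESeq2 called 2 lower and 1 higher. The share of all genes at the unadjusted cutoff is not given here, and DESeq2 called 1423 lower and 967 higher of 16436. In TPM, 4 of the 12 lay below and 2 above without overlap, beside 19.7% and 7.76% of all genes tested. *Anxa5* was at 320, 316, and 306 TPM in dCas9-KRAB replicates 1 to 3 and 836, 1221, and 396 TPM in dCas9-KRAB-En5 replicates 1 to 3. *Ahnak*, which encodes a giant scaffold bound by annexin A2, was at 9.65, 6.54, and 5.496 TPM and at 36.4, 39.3, and 9.75 TPM. Both lay higher in each dCas9-KRAB-En5 library and neither passed the test, with edgeR adjusted p-values of 0.107 and 0.0373 at log2 fold changes of 1.10 and 1.63. DESeq2 called *Ahnak* higher, as did edgeR without dCas9-KRAB-En5 replicate 3, while the GC and length offsets took its log2 fold change to 0.83. With these offsets *Anxa5* was called higher (edgeR adjusted p = 0.0052, log2 fold change 1.74).

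*Anxa6* was at 126, 228, and 179 TPM in dCas9-KRAB replicates 1 to 3 and 60.2, 85.4, and 43.2 TPM in dCas9-KRAB-En5 replicates 1 to 3, with no overlap and an edgeR adjusted p of 0.0296 that missed the threshold. It was called lower by DESeq2 (adjusted p = 0.00366) and by edgeR without dCas9-KRAB-En5 replicate 3 (adjusted p = 0.00268). *S100a10*, whose product forms a complex with annexin A2, was at 508 ± 204 and 523 ± 130 TPM (n = 3), and its log2 fold change was 0.11 with a 95% interval of −1.21 to 1.44. The sign turned without dCas9-KRAB-En5 replicate 3 (−0.79) and without dCas9-KRAB replicate 2 (−0.16), and was also negative with total counts (−0.031) and with the replicate block (−0.059). *S100a11*, a partner of annexin A1, was at 1416 ± 137 and 804 ± 158 TPM (n = 3), with no overlap between groups and a log2 fold change of −0.86 (95% interval −1.92 to 0.20), and it was called lower at −1.41 without dCas9-KRAB-En5 replicate 3 (edgeR adjusted p = 0.00704). Among the curvature genes, the log2 fold change of *Bin2*, a relative of *Bin1*, was 0.98 (95% interval −0.10 to 2.06), and that of *Bin3* was −0.44 (−1.33 to 0.46). *Mtm1* and *Dnm2*, whose products act with BIN1 on tubules, had 0.73 (−0.93 to 2.40) and 0.58 (−0.51 to 1.68). The GC and length offsets turned *Bin3* to 0.13 and *Mtm1* to −0.31.

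**Figure D4:**
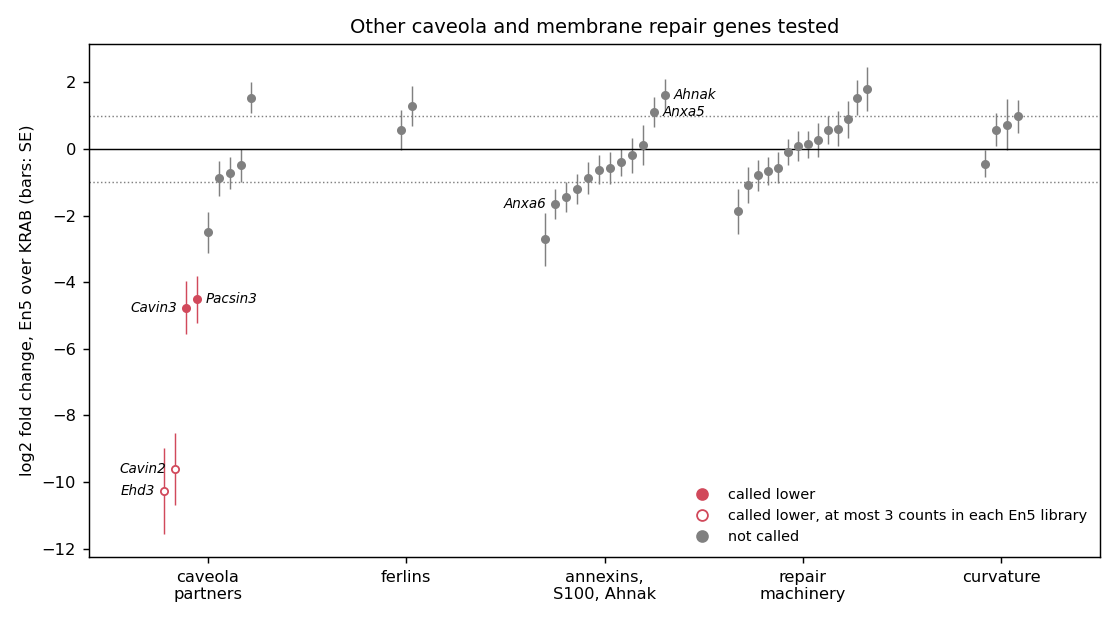
log2 fold change (dCas9-KRAB-En5 over dCas9-KRAB, edgeR) with standard errors for the 41 other genes tested, grouped by role, red where called lower and dotted lines at −1 and 1. *Cavin2*, *Cavin3*, *Ehd3*, and *Pacsin3* lay at −4.52 or below, and no gene of the other 4 groups was called.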

How the data were processed

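RNA-Seq was carried out on 3 dCas9-KRAB and 3 dCas9-KRAB-En5 libraries of C2C12 cells on day 5. The authors aligned the reads to GRCm38/mm10 with HISAT2 2.2.1, assigned them to genes with featureCounts, and deposited raw counts for each library. The deposited TPM correct these counts for gene length and library size. The annotation release and the strand setting are not given in the sources used here, so reads of overlapping antisense genes cannot be told apart. A gene that a file does not list was taken as 0. The implied gene lengths were within 1% of the GENCODE exon length for 98.6% of 12906 genes.

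Counts were compared with edgeR 4.0.16 (R 4.3.3; TMM, filterByExpr with minimum counts of 10 and 15 in total, quasi-likelihood test, group alone, Benjamini-Hochberg adjustment). edgeR does not report the standard errors given here. Each is the size of the log2 fold change divided by the square root of the test's F statistic. The 95% intervals of log2 fold changes add a t quantile to this and are approximate. The alternatives used DESeq2 1.42.0, the study's tool, limma 3.58.1, other normalizations, filters, and cutoffs, a replicate block, and each library left out. The script was tested on simulated data, where recovery of changed genes was required only at a fixed spread, not at that of these data. Such a test cannot show how many changes were missed here. Libraries with the same replicate number deviated together from their group means (correlations of 0.262, 0.214, and 0.290, against −0.340 to −0.051 for different numbers). Deviations from a group mean cancel within the group, so positive values for the same number push the others to be negative. This contrast was not tested, and no label states that the numbers pair the libraries. The main fit used group alone, with the replicate number as a block in an alternative. With this block 1543 genes were called, 976 lower and 567 higher, against 890 without it. The depth was 31831093 to 73988425 counts, and a floor of 3 counts was 0.0405 to 0.0942 CPM, for counting error only.

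The members and gene lists were chosen with earlier results of these data known. Genes were named by rule: the 10 members, each other caveola or repair gene called, a fixed set of their relatives and partners, the 3 genes most like *Cav3* and *Cav1*, and *Myog*. Promoters came from RefSeq and were searched for 9 of 10 members, with *Bin1* left out of the search.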

Additional observations from a re-analysis of the deposited data

How the results depend on the processing

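The direction of *Cav3*, *Cavin4*, *Trim72*, *Cavin1*, *Dysf*, *Bin1*, and *Cav1* was the same in each alternative that gave them a value. *Bin1* and *Trim72* kept their calls, in 17 and 16 alternatives. Of the calls, *Cav3* and *Cavin4* were lost in 1 of 16 each, *Cavin1* in 5 of 17, and *Dysf* in 5 of 16. The cause of these changes was not tested. The sign turned for *Cav2*, to −0.043 with DESeq2 size factors and −0.043 with DESeq2, −0.14 with upper quartiles, −0.0083 without a low-count filter, and −0.045 with at least 10 counts in every library. It turned for *Anxa2*, to 0.10 with total counts and with limma on log2(TPM + 1) and log2(TPM + 0.1), 0.26 with GC and length offsets, and 0.080 with the replicate block without dCas9-KRAB-En5 replicate 3. Both of these last alternatives were chosen after seeing the data. Leaving out 1 library gave log2 fold changes of −0.61 to 1.05 for *Cav2*, −0.22 to 0.076 for *Anxa2*, and −0.72 to 0.071 for *Anxa1*.

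The number of genes called in all was 890, with 671 lower and 219 higher. It was 586 with total counts, 516 lower and 70 higher. It was 2390 with DESeq2 (1423 lower and 967 higher), 514 with limma on log2(TPM + 1), 2198 without a low-count filter, 544 with at least 10 counts in every library, 2449 with the adjusted p cutoff at 0.05, and 1650 with GC and length offsets (878 lower and 772 higher). With the replicate block it was 1543, and 4561 when dCas9-KRAB-En5 replicate 3 was also left out. Leaving out 1 library gave 222 to 3921, the lowest without dCas9-KRAB replicate 1 and the highest without dCas9-KRAB-En5 replicate 3. The block called 6 members and 6 of the other genes lower, and changed no call of a member. With at least 10 counts in every library 2 members were called, since *Cav3*, *Cavin4*, *Trim72*, and *Dysf* could not pass that filter. Leaving out 1 library gave 2 to 6 members called lower, with 2 without dCas9-KRAB replicate 1. The other caveola and repair genes called lower numbered 7 with DESeq2 and without a low-count filter, 2 with at least 10 counts in every library, 8 with the cutoff at 0.05, and 9 with the block without dCas9-KRAB-En5 replicate 3, and 1 to 9 when 1 library was left out. Called higher were 1 with DESeq2, 2 with the cutoff at 0.05, 2 with GC and length offsets, and 4 with the block without dCas9-KRAB-En5 replicate 3, and 0 to 3 when 1 library was left out. The share of *Cav3* in the caveolins of dCas9-KRAB cells was 14.2% by counts in place of 32.8% by TPM. Fits without 1 library assume that the remaining pair varies like the other group.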
